A study of Mus musculus with 2 samples.

Results

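The 7 transcriptional regulators Pparg, Prdm1, Gata6, Myc, Cebpa, Cebpb and Rxra, known for their part in sebaceous gland cells, were followed as single genes through both libraries of the series. They were found by symbol among the genes of the count matrices, 7 of 32285 genes, and each symbol matched 1 gene. They were chosen by name, without a threshold on their values. All of them passed the mean level of 5 CPM (a gene's unique molecular identifiers, UMIs, scaled to a common total per group of cells, so that levels compare between groups) used for the gene-wide comparisons over all epithelial cells.

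Dorsal skin was taken from mice at postnatal day 3. The first library is labelled Wildtype by genotype (control) and the other miR-200b induced. The treatment given for each is Dox, so the controls share it. Suspensions of epidermal and dermal cells were mixed 30 to 70 before loading on a droplet platform that reads 3′ ends of polyadenylated RNA. The labels give neither the promoter or construct behind the induction nor the number of animals per library. There was 1 library per group, so no test between groups was possible, and every interval given here is a 95% interval that covers counting error only.

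Sebocytes, the lipid-filled cells of the sebaceous gland, arise from progenitors in the upper hair follicle, mature, and burst to release sebum. PPARγ, encoded by Pparg, is a nuclear receptor that binds DNA as a pair with RXRα (Rxra) and drives genes of lipid storage, and the C/EBP factors Cebpa and Cebpb act with it in fat cells and sebocytes. Blimp1, encoded by Prdm1, is a repressor of transcription linked to sebaceous gland size and to terminal differentiation, GATA6 marks the sebaceous duct and the upper follicle, and MYC pushes epidermal stem cells towards the sebaceous lineage.

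Pparg (ENSMUSG00000000440) lies on the plus strand at chr6:115360951-115490399 of mm10, which is GRCm38. Cebpa (ENSMUSG00000034957) lies at chr7:35119293-35121928 and Cebpb (ENSMUSG00000056501) at chr2:167688915-167690418, both on the plus strand. Rxra (ENSMUSG00000015846) lies at chr2:27676440-27762957 on the plus strand. Prdm1 (ENSMUSG00000038151) lies at chr10:44437177-44528501 on the minus strand, and Myc (ENSMUSG00000022346) at chr15:61985391-61990374 on the plus strand. Gata6 has the identifier ENSMUSG00000005836. Of these genes 4, Pparg, Gata6, Cebpa and Cebpb, overlap an annotated gene on the opposite strand. Whether the authors' counting used strand is not given in the sources used here, so reads of such partners may be included.

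Because the induced gene is a microRNA, the 3′ untranslated regions (UTRs) of the regulators were searched for the match to its seed, bases 2 to 8 from the 5′ end, which pair with target RNAs. The mature members of the family (RefSeq, GRCm38.p6) are shown with the seed in capitals. The first of them is an arm of the induced miR-200b, and the others carry either the same seed or that of miR-200a.
miR-200b-3p: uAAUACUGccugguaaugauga
miR-200c-3p: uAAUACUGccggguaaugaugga
miR-429-3p: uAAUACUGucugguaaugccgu
miR-200a-3p: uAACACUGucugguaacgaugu
miR-141-3p: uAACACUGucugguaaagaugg
The DNA match to the miR-200b seed is CAGTATT, and that to the miR-200a seed is CAGTGTT. Of 20856 genes with an annotated 3′ UTR in the GENCODE annotation used here, 13.3% held the miR-200b match and 17.2% the miR-200a match. Prdm1 was the regulator with a miR-200b match, 1 in a 3′ UTR of 2490 bases. It is shown here in capitals with its surroundings, since none of the other 6 regulators carried one.
Prdm1 3′ UTR site (mm10, chr10:44438438-44438466, minus strand): tcagcttttctCAGTATTtgtgtttttgc
No miR-200b match was found in the 3′ UTRs of Pparg (204 bases), Cebpa (1555 bases), Cebpb (506 bases), Myc (466 bases), Gata6 (1153 bases) or Rxra (3269 bases). The miR-200a match occurred in 2 places in Rxra and in 1 place in Gata6. A match is a run of letters and not a measured site of binding.

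Promoter windows of 300 bases, from 250 bases before to 50 after a start, were matched in the RefSeq table for Pparg (3 starts), Cebpa (1), Cebpb (1), Prdm1 (1) and Rxra (2), which makes 5 of the 7 regulators. The windows of Pparg and Cebpa are printed because these 2 genes differed most between the libraries, and for Pparg the 1 of 3 windows with most matches was taken. Capitals mark a CCAAT box, the core AGGTCA that many nuclear receptors recognise, or a TATAAA box, all searched on both strands.
Pparg promoter (GRCm38.p6, chr6:115362099-115362398, plus strand): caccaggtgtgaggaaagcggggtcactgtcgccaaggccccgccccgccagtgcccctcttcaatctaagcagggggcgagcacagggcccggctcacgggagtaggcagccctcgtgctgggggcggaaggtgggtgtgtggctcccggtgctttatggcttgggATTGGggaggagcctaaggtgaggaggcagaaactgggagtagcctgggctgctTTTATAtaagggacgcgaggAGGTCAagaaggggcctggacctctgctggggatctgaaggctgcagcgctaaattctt
Cebpa promoter (GRCm38.p6, chr7:35119043-35119342, plus strand): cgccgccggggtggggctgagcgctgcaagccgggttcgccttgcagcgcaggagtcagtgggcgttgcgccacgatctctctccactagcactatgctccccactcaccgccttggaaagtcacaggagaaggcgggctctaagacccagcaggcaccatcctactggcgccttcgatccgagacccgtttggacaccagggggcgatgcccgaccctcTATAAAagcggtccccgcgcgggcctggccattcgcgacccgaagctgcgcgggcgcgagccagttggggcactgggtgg
Over 32851 promoter windows of the same length, 37.4% held CCAAT, 16.3% AGGTCA and 13.6% TATAAA on either strand. The Pparg window held 1 of each, and the Cebpa window held TATAAA alone. The E-box CACGTG, which MYC can bind, was in 7.15% of all windows and in none of the 8 windows of the 5 regulators. The double element of the PPAR and RXR pair, searched as direct repeats 1 base apart, was in 0.0396% of all windows and in none of these 8.

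Cell classes were rebuilt from the counts, with the 7 regulators left out of the clustering, and each class name means cells like that type. After filtering and removal of likely doublets, 4816 control and 4890 induced cells remained (median depth 14584.5 and 17850.5 UMIs). The epithelium made up 3955 and 4104 of them. These held 77227345 and 98278141 UMIs, so 3 UMIs of a gene in all control epithelial cells correspond to 0.0388 CPM. Of 42 epithelial clusters, 29 drew at least 95% of their cells from 1 library. The libraries shared 8 cell barcodes among the kept cells. Of the control cells 215 were sebaceous, and of the induced cells 3. They formed 1 cluster led by Mgst1, Soat1 and Prlr (108 and 0 cells) and another led by Cyp2g1, Scd1 and Fa2h (107 and 3 cells). A further cluster led by Aldh3a1, Sftpc and Lpl (110 control and 6 induced cells), also rich in Prlr and Acsbg1, met no name and is called the Aldh3a1 cluster. The 33 control cells of the inner root sheath class also carried upper follicle and duct markers, which summed to 24524 CPM there and to 25560 CPM in the upper follicle class. Their own 8 markers summed to 2037 CPM, against 11744 CPM in the 54 induced cells of the class, so its name rests on less in the control library. All 17 sebaceous markers were detected in the control sebaceous cells, where they summed to 41556 CPM, against 569 CPM in the other control epithelial cells.

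In the control library Pparg, Cebpa and Cebpb were high in sebaceous cells, while Gata6 was high in the upper follicle and low in sebaceous cells, and Prdm1 and Myc were highest elsewhere. Rxra was spread almost evenly over the epithelium. A gene was called higher or lower when its levels were at least 1.5-fold apart with 5 CPM added to both and its Poisson intervals did not overlap. In sebaceous against other epithelial cells 3 of the 7 regulators were called higher, beside 18.9% of all genes tested, and 1 lower, Gata6, beside 29.3%. Gata6 reached the mean of 5 CPM through the other cells alone. These calls compare cells within 1 library and are a description.

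Pparg stood at 286.5 CPM (273 to 300 CPM, 1820 UMIs) in the 215 sebaceous cells and at 20.6 CPM in the other 3740 epithelial cells of the control library. The log2 ratio was 3.80 (3.70 to 3.90). Sebaceous cells held 8.23% of all UMIs of control epithelial cells and 55.5% of those of Pparg. The Aldh3a1 cluster was next, at 152.9 CPM (134 to 174 CPM). Outer root sheath cells, the outer wall of the follicle, had 23.0 CPM and upper follicle and duct cells 21.8 CPM, and these intervals overlapped. Inner root sheath cells had 4.99 CPM, and basal epidermal cells 1.95 CPM (37 UMIs). The spinous layer, at 0.454 CPM, rested on 3 UMIs. Outside the epithelium, endothelial cells had 40.4 CPM and fibroblasts 5.997 CPM.

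Signal of Pparg outside the gland was uneven. Among the 23 epithelial clusters with at least 30 control cells, 9 had 20 CPM or more and the median was 8.22 CPM. After the sebaceous clusters (383 and 243 CPM) and the Aldh3a1 cluster, the highest were an unnamed cluster led by the heat-shock genes Hspa1a and Hspa1b (91.7 CPM) and an outer root sheath cluster led by Tgfb2, Krtap17-1 and Pthlh (76.9 CPM). The other outer root sheath clusters ranged widely, at 31.03 CPM in that led by Ube2c, 12.8 CPM in that led by Ier3, 2.14 CPM in that led by Id4 and 1.15 CPM in that led by Sfrp1, Nppc and Scrg1. In outer root sheath cells the sebaceous markers summed to 294 CPM. At the ratio of Pparg to these markers in sebaceous cells that marker level goes with 2.03 CPM of Pparg, while 23.0 CPM were measured. In basal cells the same ratio gives 1.59 CPM against 1.95 CPM measured, and in upper follicle and duct cells 10.3 CPM against 21.8 CPM. In the spinous layer it gives 5.88 CPM, above the 0.454 CPM measured, so measured levels lay on both sides of this ratio. Over control epithelial cells outside the sebaceous clusters the largest of these markers were Mgst1 (132 CPM), Elovl4 (128 CPM), Plin2 (95.2 CPM) and Acsbg1 (63.9 CPM). Others were low there, such as Elovl3 (5.15 CPM) and Awat1 (0.762 CPM). How far the marker sum outside the gland stands for sebaceous RNA was not tested.

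Cebpa stood at 555.5 CPM in sebaceous and 138 CPM in other epithelial cells, a log2 ratio of 2.01 (1.95 to 2.06). The Aldh3a1 cluster (302 CPM) and the upper follicle (291 CPM) followed with overlapping intervals, then the spinous layer (188 CPM), the outer root sheath (136 CPM), the inner root sheath (121 CPM), basal cells (74.8 CPM) and the hair matrix (41.6 CPM). Cebpa was thus present throughout the epithelium, and sebaceous cells held 26.5% of its control epithelial UMIs.

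Cebpb was the most abundant of the 7 by UMIs, with 2230 CPM in sebaceous and 531 CPM in other epithelial cells. Its log2 ratio was 2.07 (2.04 to 2.10). The inner root sheath had 1130 CPM, the Aldh3a1 cluster 936 CPM and the upper follicle 881 CPM, and basal cells were lowest among the named epithelial classes at 187 CPM. Both C/EBP genes therefore had their lowest epidermal level in the basal layer and a higher one in the spinous layer.

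Rxra, the partner of PPARγ, had 82.3 CPM in sebaceous and 56.2 CPM in other epithelial cells. The log2 ratio of 0.55 (0.42 to 0.68) lay above 0, but with 5 CPM added it was under the 1.5-fold limit. Over the 23 control clusters Rxra ran from 45.8 to 84.2 CPM, and the sebaceous clusters were its top 2. Fibroblasts had 22.2 CPM and endothelial cells 21.97 CPM.

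Gata6 was highest in the upper follicle and duct, with 70.0 CPM (63.8 to 76.6 CPM) against 8.59 CPM in other control epithelial cells and a log2 ratio of 3.03 (2.85 to 3.20). These 219 cells held 43.6% of its epithelial UMIs. The Aldh3a1 cluster came next at 38.1 CPM, and the inner root sheath had 19.97 CPM. Sebaceous cells had 4.72 CPM (30 UMIs), against 14.7 CPM in the other epithelial cells, a log2 ratio of -1.64 (-2.22 to -1.12). This call of a lower level was made under 8 of the 12 alternative settings tried, and with likely doublets kept the log2 ratio with 5 CPM added went from -1.02 to -0.04. In the upper follicle against other control epithelial cells 2 of 7 regulators were called higher, Gata6 and Cebpa, beside 9.28% of genes, and 1 lower, Pparg, beside 18.5%. These other cells include the sebaceous ones. With sebaceous cells left out of them, a choice made after the data had been seen, Pparg was 21.8 against 20.5 CPM (log2 ratio 0.09, -0.17 to 0.34) and was not called. Higher calls were then 3 of 7, Gata6, Cebpa and Cebpb (881 against 495 CPM), beside 10.5% of genes, and lower calls 0 of 7, beside 18.8%. Basal cells (6.84 CPM) and outer root sheath cells (6.48 CPM) did not differ beyond their intervals.

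Prdm1 had 11.8 CPM in sebaceous and 13.2 CPM in other epithelial cells, and the interval of the log2 ratio spanned 0 (-0.52 to 0.18). This value depended on the settings. With 5 CPM added the ratio was -0.12, and under a stricter cell filter it was -0.80 and called lower. With cells thinned to 2000 UMIs it was -1.24 and not called. The inner root sheath class (50.7 CPM), rich in upper follicle markers in this library, and the outer root sheath (28.1 CPM) were above the sebaceous level. The outer root sheath cluster led by Sfrp1, Nppc and Scrg1 reached 61.6 CPM, and basal cells had 0.316 CPM (6 UMIs). Granular layer cells, 10 in the control library, had 99.4 CPM. Outside the epithelium, dermal papilla cells had 400 CPM from 106 UMIs in 42 cells, and endothelial cells 29.0 CPM.

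Myc was highest in basal epidermis, with 63.9 CPM (60.4 to 67.6 CPM). The spinous layer (41.3 CPM) and the upper follicle (39.0 CPM) did not differ beyond their intervals, and sebaceous cells had 30.4 CPM. Other control epithelial cells had 42.7 CPM, and the log2 ratio of sebaceous over other cells was -0.49 (-0.71 to -0.28), under the 1.5-fold limit. Its top cluster, at 154 CPM, was a basal one whose 10 leading genes include the immediate-early and cytokine-response genes Atf3, Socs3 and Irf1.

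**Figure D1:**
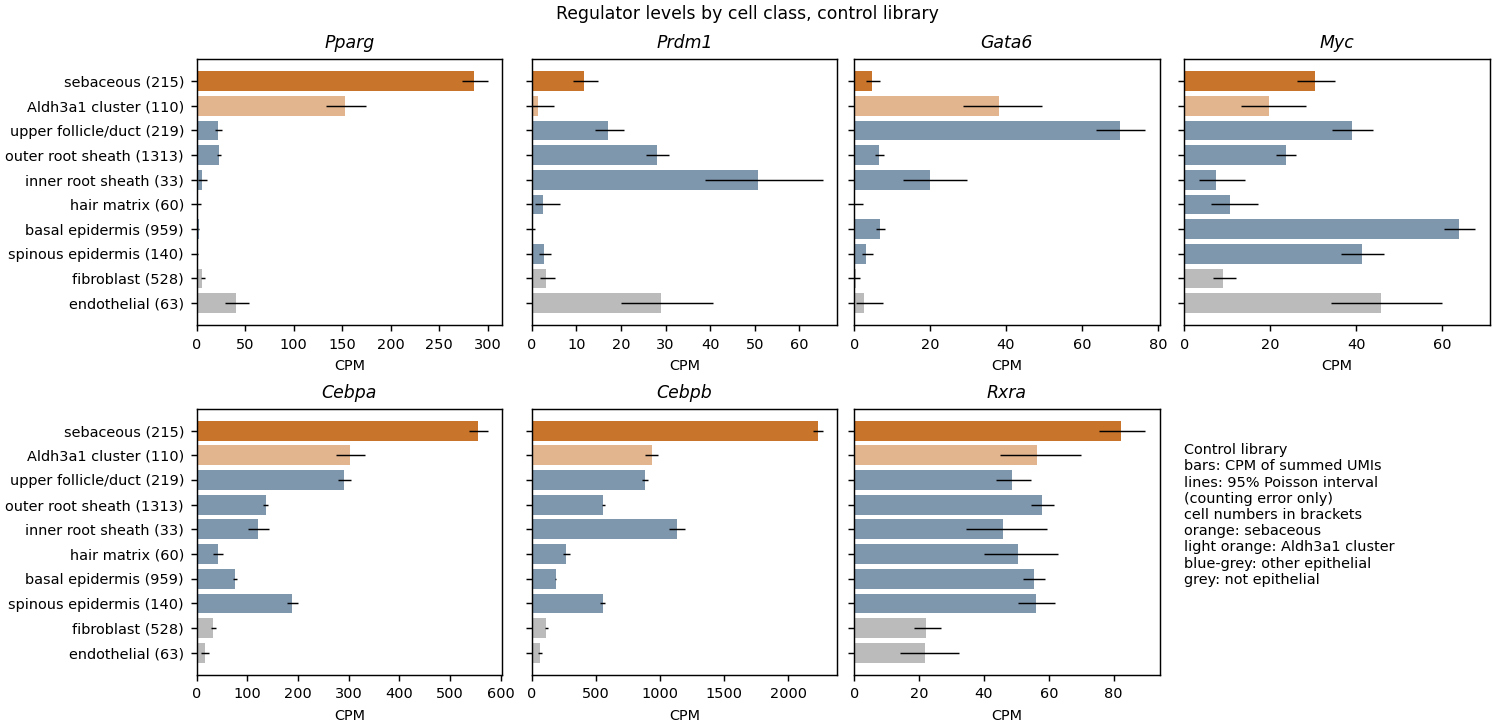
Each panel plots the level of 1 regulator in the control library as CPM of summed UMIs (horizontal axis from 0, a different scale per panel) for 10 cell classes, with 95% Poisson intervals as lines and the number of cells in brackets. Pparg (286.5 CPM), Cebpa (555.5 CPM) and Cebpb (2230 CPM) peak in sebaceous cells, Gata6 peaks in the upper follicle at 70.0 CPM and Rxra is nearly level over the epithelial classes.

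The Aldh3a1 cluster was set against the other control epithelial cells without the sebaceous ones. It was singled out after its values had been seen, so the counts that follow are a description. Of the 7 regulators 4 were called higher there, beside 7.29% of genes, and 2 lower, beside 12.1%. Pparg had a log2 ratio of 3.10 (2.89 to 3.31), Gata6 of 1.42, Cebpa of 1.17 and Cebpb of 0.84. Prdm1 had -3.31, from 2 UMIs in the cluster, and reached the mean through the other cells alone, and Myc -1.13, while the interval of Rxra spanned 0 (-0.33 to 0.32).

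Along an order that ran from the unnamed Aldh3a1 cluster to the sebaceous clusters, the regulators had unlike courses. The Aldh3a1 cluster stands apart from the gland by its markers, since the 17 sebaceous markers summed to 1346 CPM there, against 1487 CPM in the upper follicle and duct and 41556 CPM in sebaceous cells. The 325 control cells of the sebaceous clusters and the Aldh3a1 cluster were ordered by the share of their UMIs that came from the 17 sebaceous markers and cut into 4 ranges of 81 or 82 cells, numbered from the lowest share. Range 1 held 82 cells of the Aldh3a1 cluster, range 2 held 28 of them with 53 sebaceous cells, and ranges 3 and 4 held sebaceous cells alone. They are steps on a scale and not types: 20, 9 and 16 cells lay within 1.1-fold of the 3 limits. Median depth differed, from 13112.5 UMIs in range 1 to 36319 UMIs in range 4, and its part in the values was not tested.

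Gata6 had 37.5 and 29.7 CPM in ranges 1 and 2 and 1.84 and 1.77 CPM in ranges 3 and 4, and the intervals of the lower pair lie above those of the upper pair. Its 42 UMIs of range 1 came from 25 cells and the 34 of range 2 from 19 cells. In range 2 the 53 sebaceous cells had 25.2 CPM (15.4 to 39.0 CPM) and the 28 Aldh3a1 cluster cells 39.7 CPM (21.7 to 66.6 CPM), so among sebaceous cells alone range 2 also lay above ranges 3 and 4. Prdm1 had 0.894, 5.24, 1.84 and 19.5 CPM. The intervals of ranges 1, 2 and 3 overlapped, and that of range 4 (15.1 to 24.8 CPM) lay above them. In range 4, 66 UMIs of Prdm1 came from 18 cells, and 1 of these cells held 18 of the UMIs.

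Myc was highest in range 2, at 71.6 CPM (56.9 to 88.8 CPM). It stood at 17.9, 35.9 and 12.4 CPM in ranges 1, 3 and 4, whose intervals lie below that of range 2. Within range 2 the sebaceous cells had 92.1 CPM and the Aldh3a1 cluster cells 25.5 CPM. Pparg had 142, 321, 311 and 249 CPM, so its lowest level was in range 1, which held no sebaceous cell, and range 4 was below ranges 2 and 3. Of range 2, the sebaceous cells had 381 CPM. Cebpa had 278, 573, 671 and 458 CPM, with its lowest level in range 1 and its highest in range 3. Cebpb had 818 CPM in range 1 and between 1995 and 2229 CPM in the others. Rxra had 56.3, 70.7, 87.0 and 80.6 CPM, and the intervals of neighbouring ranges overlapped.

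**Figure D2:**
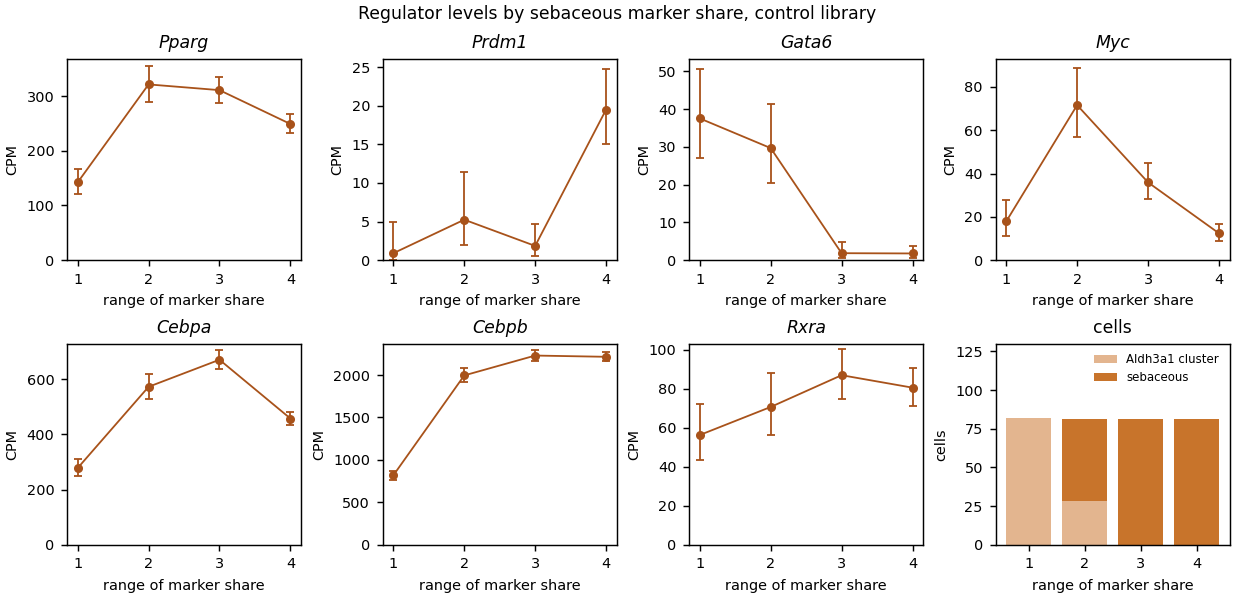
The panels plot CPM (vertical axis from 0) with 95% Poisson intervals for each regulator in 4 ranges of the sebaceous and Aldh3a1 cluster cells of the control library, ordered by the share of UMIs from sebaceous markers, and the last panel plots the cells of each range by cluster. Gata6 is at 37.5 and 29.7 CPM in ranges 1 and 2 and at 1.84 and 1.77 CPM in ranges 3 and 4, Myc peaks at 71.6 CPM in range 2, and Prdm1 is highest in range 4 at 19.5 CPM.

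To compare shares of cells with at least 1 UMI, 2000 UMIs were drawn from every cell. Pparg was seen in 101 of 213 control sebaceous cells, 47.4% (40.6 to 54.4%), and in 22 of 110 cells of the Aldh3a1 cluster. In control fibroblasts 1.34% of cells had a UMI, and in control basal cells 0.522%. Median depths before thinning were 24929 UMIs in sebaceous cells, 9538 in fibroblasts and 18777 in basal cells. Without thinning, 95.3% of sebaceous cells and 5.11% of fibroblasts had a UMI of Pparg. Thinned shares in sebaceous cells were 72.3% for Cebpa, 97.2% for Cebpb, 14.6% for Rxra, 6.57% for Myc and 0.939% for both Gata6 and Prdm1. In control fibroblasts the same shares were 7.46% for Cebpa, 19.9% for Cebpb, 4.78% for Rxra, 1.91% for Myc, 0% for Gata6 and 0.574% for Prdm1, so those of Gata6 and Prdm1 in sebaceous cells rest on 2 cells each and are near background.

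Joint detection of pairs was counted as well. In 3908 thinned control epithelial cells, Pparg and Cebpa were seen together in 124 cells, and the product of their shares gives 59.2 cells. Outside the sebaceous and Aldh3a1 clusters, they were together in 41 cells, where the product gives 23.7. Inside these clusters they were together in 83 of 323 cells, where the product gives 77.3. Pparg and Gata6 were counted at a greater depth, in cells thinned to 5000 UMIs. Outside these clusters they were together in 26 of 3438 cells, where the product gives 11.2. Within the sebaceous and Aldh3a1 clusters they were together in 11 of 312 cells, where the product gives 14.4. Cells of several clusters are pooled in each of these counts, and deeper thinning leaves out shallower cells.

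Over the 23 control epithelial clusters the pair of C/EBP genes had the highest Pearson r among the 7 (0.847, log2 levels with 20 CPM added), while by Spearman's rho Pparg with Cebpb came first (0.833) and Cebpa with Cebpb next (0.780). For Pparg r was 0.809 with Cebpb, 0.777 with Cebpa, 0.642 with Rxra, 0.363 with Gata6, 0.00278 with Prdm1 and 0.00128 with Myc. By rho the order of Gata6 (0.529) and Rxra (0.345) was the other way round. Prdm1 and Myc had the lowest value by both measures, r -0.408 and rho -0.477. Clusters share 1 library and differ in depth, so these values are descriptions with n = 23 clusters and no p-value.

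Among 5577 other genes, by Pearson r, those most like Pparg were Acyp2 (0.939), the very-long-chain acyl-CoA synthetase Acsbg1 (0.927) and the prolactin receptor Prlr (0.922). Cebpa was most like Sdr16c5 (0.852), Hsdl2 (0.850) and Cebpb (0.847), and Cebpb most like the lipid droplet coat gene Plin2 (0.869), the carboxypeptidase Cpe (0.854) and Cebpa (0.847). Genes close to Gata6 included Irak3 (0.838) and Adgrl2 (0.810). Prdm1 was most like Rhoc (0.911), the receptor phosphatase Ptprk (0.850) and Ank (0.843). Genes close to Myc included Tmem51 (0.827) and Sbno2 (0.743). Rxra was most like Aldh6a1 (0.831), Acad11 (0.825) and Pmpcb (0.820). Acsbg1 and Plin2 are among the markers that named the sebaceous clusters.

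Between the libraries, Pparg and Cebpa were lower in the induced epithelium and the other 5 regulators were not called. Of the 7 regulators 2 were called lower over all epithelial cells, beside 11.9% of the 9907 genes tested, and 0 of 7 higher, beside 6.96%. The median gene had a log2 ratio of -0.10. Sebaceous cells made up 5.44% (4.75 to 6.19%) of control and 0.0731% (0.0151 to 0.213%) of induced epithelial cells, so the comparison was repeated without them. Again Pparg and Cebpa were called lower, 2 of 7 beside 11.3% of genes, and 0 of 7 higher, beside 6.97%. All 7 were tested in both comparisons, and Pparg reached the mean of 5 CPM through the control library alone.

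Pparg went from 42.5 CPM (3281 UMIs) in the control to 1.61 CPM (158 UMIs) in the induced epithelium. The log2 ratio was -4.72 (-4.96 to -4.49). Without sebaceous cells it was 20.6 against 1.44 CPM, a log2 ratio of -3.84 (-4.10 to -3.59). With the Aldh3a1 cluster left out too, a choice made after the data had been seen, it was 17.8 against 1.27 CPM, a log2 ratio of -3.81, and again 2 of 7 regulators were called lower, beside 11.3% of genes, and 0 higher, beside 6.92%. Sebaceous markers summed to 569 CPM in control and 410 CPM in induced epithelial cells without the sebaceous clusters, with 0 of 17 at 0 in either. Of the control sum, Mgst1 gave 132 CPM, Elovl4 128 CPM, Plin2 95.2 CPM and Acsbg1 63.9 CPM. The part of the sebaceous markers in the difference was not tested.

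In 3 classes 2 or more regulators were called lower: the outer root sheath (3 of 7, beside 8.45% of genes), the upper follicle (2 of 7, beside 9.8%) and the inner root sheath (2 of 6 tested, beside 11.2%). In basal cells it was 1 of 5 tested, beside 9.35%, and in the spinous layer and the hair matrix 0 of 5, beside 12.9% and 8.62%. Higher calls were 1 of 7 in the upper follicle, beside 6.66% of genes, 1 of 5 in the spinous layer (8.92%), 1 of 5 in the hair matrix (7.49%), 0 of 5 in basal cells (6.83%) and 0 of 6 in the inner root sheath (8.23%). Pparg, called lower in the outer root sheath and the upper follicle, reached the mean of 5 CPM there through the control library alone, so its part of these counts could only be a lower call. Outer root sheath cells had 23.0 CPM of Pparg in the control and 2.48 CPM in the induced library (log2 ratio -3.21, -3.70 to -2.75). In the upper follicle and duct it was 21.8 against 0.524 CPM, the latter from 3 UMIs in 216 cells (log2 ratio -5.38, -7.67 to -3.80). Sebaceous markers in these classes summed to 294 against 125 CPM (0 and 3 of 17 at 0) and 1487 against 716 CPM (0 and 1 at 0), and their part was not tested. Basal cells had 1.95 against 0.172 CPM, a mean too low to be tested. Spinous cells went the other way at a level near 0, with 0.454 against 1.76 CPM (3 and 29 UMIs), and were not called. Most clusters of these classes came from 1 library. Outer root sheath cells of the control came mainly from clusters led by Id4, by Ube2c, by Sfrp1, by Ier3 and by Tgfb2, and those of the induced library from clusters led by Lhx2 (2 clusters), by Pthlh and by Cenpf. Control upper follicle cells lay mainly in a cluster led by Defb6 (155 of 219), and induced ones in a cluster led by Krt79 and Dpysl3 (124 of 216).

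Clusters with at least 30 cells of each library allow a closer match, and there were 6, of which 2 are the whole hair matrix and inner root sheath classes. In the cluster led by Krt79, Krt15 and Krt7 2 of 7 regulators were called lower, beside 10% of genes, and 0 higher, beside 7.41%. In that led by Tgfb2 it was 1 of 7 lower (2.37%) and 1 higher (4.35%), in that led by Wfdc18 1 of 6 lower (6.47%) and 2 higher (5.65%), and in that led by Sfrp1 0 of 5 lower (3.09%) and 1 higher (4.23%). Pparg was called lower in the upper follicle cluster led by Krt79, Krt15 and Krt7, at 40.5 CPM in 46 control cells and 1.37 CPM (2 UMIs) in 51 induced cells. It too reached the mean through the control cells alone. Median depth in this cluster was 47578.5 UMIs per control cell and 14632 per induced cell. In the outer root sheath cluster led by Tgfb2, the highest induced cluster for Pparg, it stood at 76.9 CPM in 206 control cells and 41.8 CPM (13 UMIs) in 31 induced cells. That log2 ratio was -0.88 (-1.82 to -0.07) and was not called. In the other 4 clusters Pparg was at most 4.99 CPM in the control library and at most 0.592 CPM in the induced one. Of 25 epithelial clusters with at least 30 induced cells, 1 had 20 CPM or more of Pparg, compared with 9 of 23 in the control.

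After thinning, 5.81% (5.10 to 6.59%) of control and 0.234% (0.107 to 0.444%) of induced epithelial cells had a UMI of Pparg. Of fibroblasts 1.34% had a UMI in the control and 3.19% in the induced library. All 8 induced fibroblasts behind the latter share lay in a cluster led by Lpl, Dcn and Col3a1, and without it the share was 0 of 181 cells, which allows up to 1.66%. The induced epithelial share was below that of control fibroblasts. Median depths before thinning were 16189.5 and 22118 UMIs for the epithelial cells and 9538 and 6510 UMIs for the fibroblasts. Without thinning the epithelial shares were 17.8% and 2.39%.

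Over all epithelial cells, Cebpa stood at 172.5 CPM in the control and 64.6 CPM in the induced library (log2 ratio -1.42, -1.46 to -1.37). Without sebaceous cells it was 138 against 64.4 CPM (-1.10, -1.15 to -1.06). It was called lower in the outer root sheath (136 against 34.4 CPM, -1.98), basal epidermis (74.8 against 25.4 CPM, -1.56), inner root sheath (121 against 41.5 CPM, -1.54) and upper follicle (291 against 128 CPM, -1.19). In basal cells the 8 spinous markers summed to 4652 against 2121 CPM (0 at 0 in either) and the 17 sebaceous markers to 231 against 99.7 CPM (0 and 1 at 0). The 9 basal markers summed there to 42631 against 24612 CPM and the 4 companion layer markers to 948 against 1941 CPM (0 at 0 for both lists). In the inner root sheath class the sebaceous markers summed to 2415 against 621 CPM (0 and 2 at 0), the 7 upper follicle markers to 24524 against 12833 CPM and the class's own 8 markers to 2037 against 11744 CPM (0 at 0 for both lists). Their part in the Cebpa differences was not tested. In the spinous layer it was 188 against 145 CPM, a log2 ratio of -0.38 (-0.48 to -0.28) that was under the 1.5-fold limit. Clusters with at least 95% of cells from 1 library were then left out, a choice made after seeing the data. The log2 ratio with 5 CPM added over all epithelial cells went from -1.35 to -0.69 for Cebpa. For Pparg it went from -2.85 to -2.01, and both genes were still called. Both sebaceous clusters were among those left out. With sebaceous cells alone left out the ratios were -1.05 for Cebpa and -1.99 for Pparg. The Aldh3a1 cluster, with 94.8% of its cells from the control library, stayed in, and its part was not tested. Cebpa was therefore lower in each of these 5 classes, and the difference was smallest in the spinous layer.

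All 6 clusters with at least 30 cells of each library had less Cebpa in the induced cells, and it was called lower in 4 of them. In the Krt79, Krt15 and Krt7 cluster it was 353 against 95.2 CPM, in the unnamed cluster led by Wfdc18, Krt6a and Tpm1 172 against 57.5 CPM, in the inner root sheath cluster 121 against 41.5 CPM and in the Tgfb2 cluster 196 against 113 CPM. In the Sfrp1 cluster, 135 against 98.6 CPM was not called, nor was 41.6 against 31.1 CPM in the hair matrix. Across clusters, Cebpa ran from 41.6 to 686 CPM (median 134 CPM) in the control and from 7.97 to 171 CPM (median 42.3 CPM) in the induced library. Of 25 induced clusters 12 were below the lowest control cluster. Thinned shares of epithelial cells with a UMI were 26.1% (24.7 to 27.5%) and 10.2% (9.24 to 11.2%).

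Cebpb had 671 CPM in all control and 475 CPM in all induced epithelial cells (log2 ratio -0.50, -0.52 to -0.48), and 531 against 474 CPM without sebaceous cells (-0.17, -0.19 to -0.15). Neither was called. When clusters with at least 95% of cells from 1 library were left out, the log2 ratio with 5 CPM added over all epithelial cells went from -0.49 to 0.35, not called on either side. Classes differed in sign: it was called lower in the inner root sheath (1130 against 737 CPM, -0.62), where the markers above moved with it, and stood at 553 against 794 CPM in the spinous layer (0.52, 0.47 to 0.57), under the limit with 5 CPM added. It was called higher in 2 matched clusters, those led by Sfrp1 (519 against 1002 CPM, 0.95) and by Wfdc18 (458 against 695 CPM, 0.60). Basal cells had 187 against 184 CPM. Thinned shares were 55.5% and 50.7%.

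Rxra had 58.4 CPM in control and 50.8 CPM in induced epithelial cells (log2 ratio -0.20, -0.26 to -0.14), and was called in no class or matched cluster. Its log2 ratio was -0.35 in basal cells (55.5 against 43.7 CPM) and 0.13 in the outer root sheath (57.97 against 63.6 CPM).

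Gata6 had 13.9 CPM in control and 11.6 CPM in induced epithelial cells, a log2 ratio of -0.26 (-0.38 to -0.14) that was not called. It was called higher in the outer root sheath, 1 of 7 regulators beside 9.27% of genes, at 6.48 against 21.2 CPM (1.71, 1.41 to 2.03), where 359 induced UMIs compare with 116. In the upper follicle it was 70.0 against 55.3 CPM (-0.34, -0.55 to -0.13). In the matched Krt79, Krt15 and Krt7 cluster it was 76.9 against 107 CPM (0.47, 0.16 to 0.79), which was not called. In the outer root sheath cluster led by Tgfb2 it was 19.0 against 29.0 CPM, and in that led by Sfrp1 1.15 against 6.03 CPM (3 UMIs in each, 2.39, -0.51 to 5.29). Both intervals spanned 0, and both values were higher in the induced cells. The other clusters of that class came almost wholly from 1 library each, so cluster and library cannot be told apart there. After thinning, 1.30% of control and 5.29% of induced outer root sheath cells had a UMI of Gata6, beside 0% of fibroblasts in both libraries (0 of 523 and 0 of 251 cells, which allow up to 0.574% and 1.195%).

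Prdm1, the regulator with the seed match, had 13.1 CPM in control and 13.5 CPM in induced epithelial cells, a log2 ratio of 0.05 (-0.07 to 0.16). It was called higher in the upper follicle (17.2 against 41.5 CPM, 1.27), the spinous layer (2.72 against 8.29 CPM, 1.61) and the hair matrix (2.52 against 16.5 CPM, 4 against 17 UMIs). In the spinous layer and the hair matrix it reached the mean of 5 CPM through the induced library alone. Companion layer markers (4 genes) summed to 12722 against 23170 CPM in the upper follicle (0 at 0) and to 2098 against 8161 CPM in the spinous layer (1 and 0 at 0), where the 12 granular markers summed to 2998 against 1348 CPM (0 at 0). The 9 basal markers summed to 13535 against 7744 CPM in the upper follicle and to 7633 against 2200 CPM in the spinous layer (0 at 0). In the hair matrix the 7 hair shaft markers summed to 1473 against 10530 CPM (1 and 0 at 0). Their part in the Prdm1 values was not tested. It was also called higher in the clusters led by Tgfb2 (23.1 against 70.8 CPM) and by Wfdc18 (13.8 against 50.6 CPM). It was called lower in no epithelial class. In dermal papilla cells, its highest class, it had 400 against 530 CPM (log2 ratio 0.41, 0.01 to 0.81) and was not called. Different clusters made up that class, since 29 of 42 control cells lay in a cluster led by Rspo3 (458 CPM) and 83 of 84 induced cells in one led by Igfbp3 (538 CPM). In the upper follicle class the highest induced cluster, led by Cst6, Sprr1a and Klk10, had 160 CPM in 33 cells, and the matched Krt79, Krt15 and Krt7 cluster had 35.7 against 32.9 CPM.

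Myc had 41.7 CPM in control and 34.0 CPM in induced epithelial cells (log2 ratio -0.29, -0.36 to -0.22). It was called lower in the outer root sheath, at 23.6 against 9.88 CPM (-1.26, -1.52 to -0.99). In that class the 9 basal markers summed to 13365 against 7959 CPM and the 7 fibroblast markers to 110 against 41.7 CPM (0 at 0 for both lists), and their part was not tested. In the matched outer root sheath clusters it was 26.5 against 30.2 CPM (Sfrp1 cluster) and 11.8 against 16.1 CPM (Tgfb2 cluster), with intervals that spanned 0. Basal cells had 63.9 against 48.8 CPM and upper follicle cells 39.0 against 34.0 CPM, and neither was called.

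**Figure D3:**
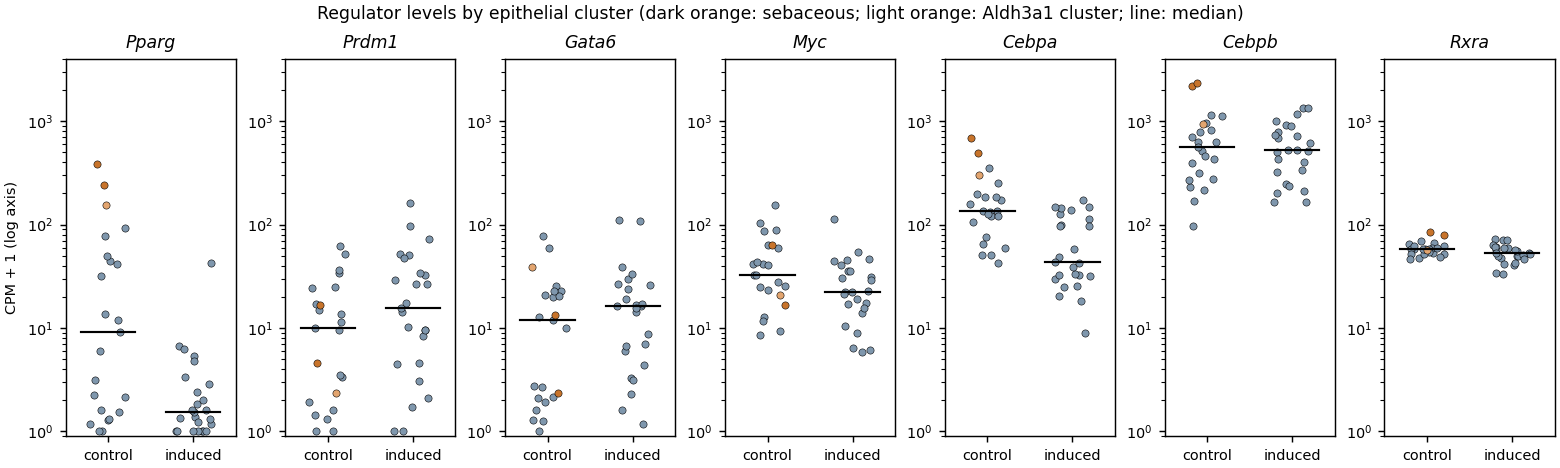
Each point is 1 epithelial cluster with at least 30 cells of the library shown (23 control and 25 induced), plotted as CPM plus 1 on a log axis for each regulator, with the median as a line. The induced clusters of Pparg lie near the bottom apart from 1 at 41.8 CPM, 12 of 25 induced clusters of Cebpa lie below the lowest control cluster, and Rxra lies in a narrow band in both libraries.

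**Figure D4:**
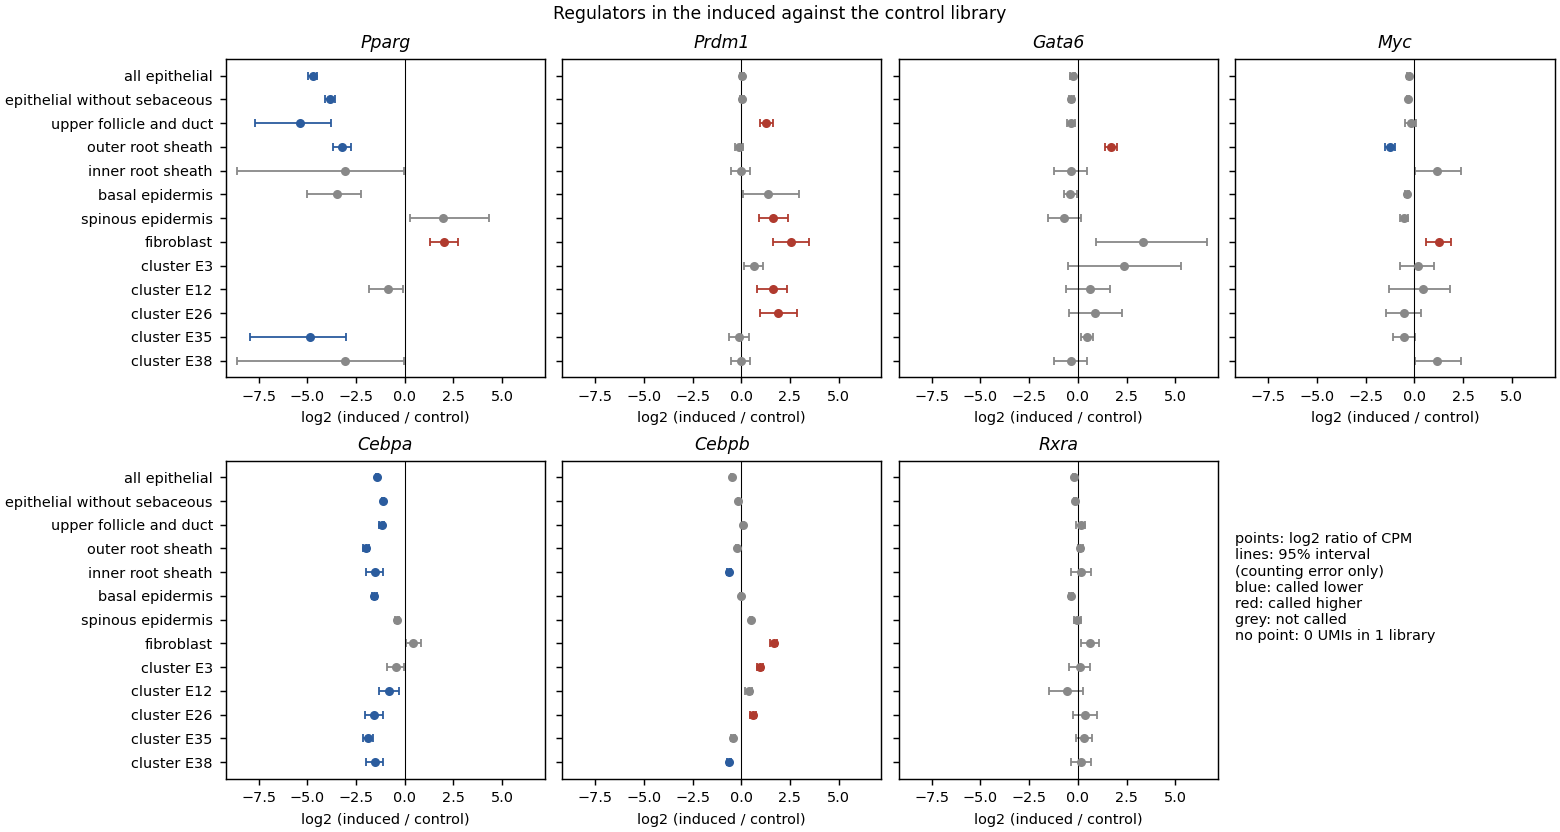
Points are log2 ratios of CPM, induced over control, with 95% counting intervals, for each regulator over pooled epithelial cells, named classes and clusters with at least 30 cells of each library. Cluster E3 is led by Sfrp1, E12 by Tgfb2, E26 by Wfdc18, E35 by Krt79 and E38 by Krt25. Cebpa is left of 0 in every epithelial row, Pparg is at -4.72 over all epithelial cells, and Gata6, Prdm1, Myc and Cebpb lie on both sides of 0.

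Genes around the regulators were taken from 9 lists, and a list gene was called when its levels were at least 2-fold apart. Over all epithelial cells 4.23% of the 5861 genes whose mean reached 20 CPM were called lower by this rule and 2.24% higher. The mean is taken over both libraries, so a gene low in 1 of them can reach it through the other, and such a gene had to differ. Of 22 PPAR target genes 13 reached that mean, and 6 of these were called lower and 0 higher. All 6 were under 20 CPM in the induced library and reached the mean through the control alone, so their number is a description. The 2 furthest apart were the fatty acid desaturase Scd1 (609 against 17.4 CPM, -5.13) and the lipid droplet gene Cidea (263 against 11.96 CPM, -4.46). Both are sebaceous markers as well.

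Without sebaceous cells 8 of the 22 PPAR targets reached the mean. The calls were lower for 3 that reached it through the control library alone, Lpl (lipoprotein lipase, 44.9 against 7.25 CPM, -2.63), Plin2 (95.2 against 16.2 CPM, -2.55) and Angptl4 (49.5 against 12.9 CPM, -1.93), where 3.57% of all genes were called lower, and higher calls were 0, beside 2.14%. Nothing is read from this number. In the outer root sheath the list divided, with 3 of 6 tested called lower, beside 2.93% of genes, and 2 higher, beside 2.49%. In each direction 1 of these genes was under 20 CPM in the library where it was lower. The higher ones included the malic enzyme Me1 (27.9 against 75.5 CPM). In basal cells 3 of the 22 reached the mean, Lpl (39.2 against 7.90 CPM), Plin2 (38.3 against 11.6 CPM) and Acsl1 (61.9 against 26.2 CPM). These were called lower, where 2.93% of genes were, and 0 were called higher, beside 1.73%. Of the 3, Lpl and Plin2 passed through the control alone. In the upper follicle 2 of 10 were lower, Plin2 and Scd1, beside 2.28%, and 0 higher, beside 2.04%.

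Within the control library 10 of 12 PPAR targets tested were called higher in sebaceous than in other epithelial cells and 0 lower, beside 13.9% of all genes higher and 14.7% lower, and 4 of the 10 reached the mean through the sebaceous cells alone. Scd1, Plin2 and Cidea of this list also served to name the sebaceous clusters. The 2 without a call were Acsl1 (127 against 63.4 CPM) and Angptl4 (29.4 against 49.5 CPM). MYC targets, genes of growth and ribosome assembly, had 5 of 16 called lower in sebaceous cells and 0 higher, with a median of -0.88.

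Over all epithelial cells, where 4.23% of genes were called lower between the libraries and 2.24% higher, 1 of 16 MYC targets was called lower, the nucleoside diphosphate kinase Nme1 (329 against 120 CPM, -1.46), and the list's median was -0.33. Of 15 other sebaceous gland regulators tested 3 were called lower, 2 of them under 20 CPM in the induced library, among them Foxo1 (47.6 against 17.7 CPM, -1.42) and Lrig1 (79.8 against 32.5 CPM, -1.30), and 0 higher. Of 8 upper follicle and duct genes the β-defensin Defb6 was called higher (56.5 against 155 CPM, 1.45) and Lrig1 lower. Nuclear receptor partners and cofactors (0 of 7), MYC partners and relatives (0 of 6), C/EBP relatives (0 of 3), GATA and FOG family genes (0 of 2) and corepressors of PRDM1 (0 of 6) had no call in either direction. Their medians lay between -0.19 and 0.18.

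Outside the epithelium, 4 of 6 regulators tested were called higher in induced fibroblasts, beside 10.8% of genes, and 0 lower, beside 9.13%. Prdm1, 1 of the 4, was at 3.29 against 19.0 CPM and reached the mean of 5 CPM through the induced library alone, with and without the cluster described next. Pparg had 5.997 CPM in 528 control and 24.0 CPM in 284 induced fibroblasts (log2 ratio 2.001, 1.30 to 2.72). A cluster led by Lpl, Dcn and Col3a1, with Fabp4 among its 10 leading genes, held 77 induced and 5 control cells and had 55.7 CPM in the induced ones. Adipocyte markers summed to 20.9 CPM in control and 2580 CPM in induced fibroblasts (3 and 0 of 7 at 0), and without this cluster to 20.7 and 16.9 CPM. Without this cluster, left out after the data had been seen, Pparg was 6.04 against 5.33 CPM (-0.18, -1.73 to 1.101). Without it 3 of 6 were called higher, beside 9.16% of genes, and 1 lower, beside 7.11%. Cebpb was higher (115 against 262 CPM, 1.19), as were Prdm1 (3.31 against 28.4 CPM) and Myc (9.16 against 20.4 CPM), while Cebpa was then called lower (32.6 against 16.9 CPM, -0.95). Depth differed in these remaining fibroblasts, with medians of 9511 UMIs in 523 control cells and 5144 in 207 induced cells. Markers of epithelial cells moved with these values in the same cells: the 4 companion layer markers summed to 45.6 against 263 CPM (0 at 0 in either), the 12 granular markers to 56.5 against 167 CPM (3 at 0 in either), the 9 basal markers summed to 323 against 614 CPM (0 at 0 in either) and the 8 spinous markers to 463 against 1074 CPM (1 and 0 at 0). The 7 melanocyte markers summed to 15.2 against 47.9 CPM (3 and 0 at 0), and the fibroblasts' own 7 markers to 72197 against 44902 CPM (0 at 0). The part of depth and of these markers in the regulators' values was not tested. In pericytes and smooth muscle 1 of 6 was called lower, Prdm1 (9.3% of genes), and 1 higher, Cebpb (7.55%). A cluster led by Acta2, Igfbp4 and Tagln held 24 of the 70 induced cells of that class and 1 of the 53 control cells. In the other cluster, led by Rgs5 (52 and 46 cells, median depth 12421 and 5281.5 UMIs), Prdm1 was 60.3 CPM in the control and 16.3 CPM (4 UMIs) in the induced cells, and Cebpb 93.3 and 628 CPM. Markers of other cells moved in the class as a whole: those of adipocytes summed to 17.1 against 1900 CPM (5 of 7 at 0 in either), of fibroblasts to 4215 against 8253 CPM (0 of 7 at 0), of the outer root sheath to 17.1 against 598 CPM (3 and 2 of 7 at 0) and of the dermal papilla to 5.71 against 158 CPM (3 and 1 of 6 at 0). Their part was not tested, and the class's own 6 markers summed to 9735 and 9522 CPM (0 at 0). Endothelial cells had 40.4 and 51.9 CPM of Pparg, with an interval that spanned 0.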

How the data were processed

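The deposited values were raw UMI counts per gene and barcode in 1 matrix per library, with no cell annotation. Per the submitters' processing notes the authors used Cell Ranger 6.0.0 and mm10, and the annotation and cell-calling settings are not given in the sources used here. There were 9072 control barcodes (100409201 UMIs) and 9114 induced ones (119705137 UMIs). Barcodes with at least 1000 UMIs, at least 500 genes and under 15% mitochondrial UMIs were kept (5178 and 5258), and the 7% with the highest Scrublet scores per library were removed as doublets, because the automatic threshold marked 3 and 1 cells.

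Cells of the 2 libraries entered 1 clustering with no batch correction. After scaling to 10000 UMIs per cell, 2000 variable genes, 30 components and 15 neighbours were used for Leiden clustering at resolution 1.0. Clusters with over 3000 CPM of keratins were pooled as epithelial and clustered again at resolution 2.0. The clustering did not use the 7 regulators, nor genes of the cell cycle, sex chromosomes, mitochondria, ribosomal proteins or haemoglobin. A class name needed at least 3 markers detected in 25% of cells and raised 1.5-fold with 20 CPM added, Krt5 among them for the basal name. Where several classes qualified, the one with most markers among the 10 leading genes was taken. The values of these naming rules were chosen with the data in view. No name was given to 25.4% of the control and 25.05% of the induced epithelial cells.

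Levels are CPM of UMIs summed over the cells of a class in 1 library, with Poisson intervals (exact). Ratios have exact conditional binomial and shares of cells exact Clopper-Pearson intervals, all at 95%. The limit behind a 0 is 3 counts, or 3 cells for a share. The calling rule was tested on simulated sums with counting error alone, which bears on the arithmetic and not on differences between libraries. Named genes were the 7 regulators, the 3 genes most like each (genes of at least 50 CPM in 1 cluster) and in each list up to 2 called genes with the largest rise and 2 with the largest fall over all epithelial cells; other list genes and the clusters singled out were named after their values had been seen. Some genes that this rule names are not reported here. The regulators and lists were chosen with earlier results of these data known. Gene positions and 3′ UTRs came from GENCODE vM21, in which 32158 of 32285 gene identifiers were found. Clustering used scanpy 1.11.5 with leidenalg 0.10.2, and intervals came from scipy 1.17.1 under Python 3.11.15.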

Additional observations from a re-analysis of the deposited data

Results flagged for a closer look

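For 4 regulators the induced library was called lower in one cell class and higher in another. None of these differences between classes was tested. Pparg had a log2 ratio of -5.38 in the upper follicle and duct and of 2.001 in fibroblasts. Prdm1 had -2.34 in pericytes and smooth muscle (42 against 6 UMIs) and 2.53 in fibroblasts. Myc had -1.26 in the outer root sheath and 1.26 in fibroblasts. Cebpb had -0.62 in the inner root sheath and 2.10 in pericytes and smooth muscle (94.3 against 404 CPM). In the pericyte and smooth muscle class 24 of 70 induced cells lay in a cluster that held 1 of the 53 control cells, and in its other cluster Prdm1 was 60.3 against 16.3 CPM and Cebpb 93.3 against 628 CPM. In the whole class adipocyte markers summed to 17.1 against 1900 CPM (5 of 7 at 0 in either) and fibroblast markers to 4215 against 8253 CPM (0 of 7 at 0), and their part was not tested. Without the cluster led by Lpl, Dcn and Col3a1, the fibroblast values were -0.18 for Pparg, 3.10 for Prdm1 and 1.16 for Myc.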

How the results depend on the processing

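Pparg, Cebpa and Cebpb were called higher in sebaceous cells under all 12 alternatives, and Pparg and Cebpa lower in the induced epithelium under all 13. Without sebaceous cells, Pparg and Cebpa were called under 12 of 13, and with regulators of at least 20 CPM alone 1 was left, Cebpa, because the mean of Pparg fell below that limit. With 5 CPM added, the log2 ratio of Pparg over all epithelial cells was -2.85, and ran from -4.06 with 1 CPM added to -1.53 with 20 CPM added. Clusters of 1 library, both sebaceous clusters among them, were left out as a choice made after seeing the data. Cebpa then went from -1.35 to -0.69 and was still called, and Cebpb from -0.49 to 0.35, not called on either side. The Aldh3a1 cluster stayed in. Prdm1 in sebaceous cells was called lower under 1 alternative, the stricter cell filter (-0.80 against -0.12). With cells thinned to 2000 UMIs it was -1.24 and not called. With a fold limit of 1.5, list genes called lower went from 10 to 16 of 75 and those called higher from 1 to 3. No result with a call changed sign. No paired analysis was possible because each group has 1 library, and no library could be left out. The ratios of Pparg rest on few UMIs in the induced library, fewer than 10 in several classes, and have wide counting intervals there, although that library held more UMIs than the control.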
